A study of Homo sapiens with 6 samples.

Results

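The basal and stress keratins examined here are 8 genes, KRT5, KRT14, KRT15, KRT17, KRT6A, KRT6B, KRT6C and KRT16, which were chosen by name and all stand among the 23459 genes of the count table. The libraries come from 1 cell line, MCF10A, an immortalised, non-tumorigenic human mammary epithelial line that was grown in medium with horse serum, insulin, hydrocortisone, cholera toxin and EGF. Cells received 20 nM siRNA with a lipid reagent, either a non-targeting control (siCtrl) or siRNAs against YAP and TAZ (siYAP/TAZ), and each group holds 3 libraries whose columns also carry the tag WT. YAP and TAZ are transcriptional coactivators of the Hippo pathway that act through TEAD factors, and the comparison asks which transcripts differ when both are depleted. RNA was counted from the 3′ ends of transcripts, so a long and a short mRNA each give about 1 fragment per molecule, and levels are set side by side without division by length. They are given as counts per 1000000 counts (CPM) on library sizes scaled by the trimmed mean of M values (TMM), with the SD over 3 libraries.

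The labels disagree on the group for 2 libraries. The library described as siCtrl replicate 2 has a title and genotype of siYAP/TAZ, and for the siYAP/TAZ replicate 2 description the title and genotype say control. The targeted genes went with the descriptions: YAP1 stood at 189, 204 and 210.3 CPM in siCtrl replicates 1 to 3 against 116.5, 118 and 112 CPM in siYAP/TAZ, and WWTR1, which encodes TAZ, at 109, 109 and 102 CPM against 70.5, 67.1 and 59.8 CPM. The depletion was partial at the RNA level, with means at 57.5% and 61.8% of the control means. Groups therefore follow the descriptions, and each difference below is siYAP/TAZ minus siCtrl. The titles also give siCtrl replicate 3 the number 2 and siYAP/TAZ replicate 1 the number 2. Replicate numbers, and the pairing built on them, follow the descriptions. Grouped by title instead, 0 of the genes passed edgeR's quasi-likelihood test at an adjusted p of 0.05, with 464 at an unadjusted p under that value. No other gene-level test was run on that grouping.

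Keratins are the intermediate filament proteins of epithelia, and each filament pairs an acidic type I with a basic type II member. KRT5 (type II) and KRT14 (type I) form the standing network of basal cells in skin and breast, and KRT15 is a further type I keratin of basal cells that is known from the hair follicle bulge. KRT6A, KRT6B and KRT6C (type II) and KRT16 and KRT17 (type I) are the stress keratins, low in most resting epidermis and raised in wounds, psoriasis and cultured keratinocytes. MCF10A cells are known to carry many basal features.

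The 4 type II genes lie on chromosome 12 and the 4 type I genes on chromosome 17, all on the minus strand of GRCh37, with 9 and 8 exons each. KRT6A, KRT6B and KRT6C are close copies. The last 60 coding bases, stop codon included, are shown for these 3 genes because they show how little the coding sequences differ, with capitals at the bases that differ from KRT6A.
KRT6A, chr12:52881504-52881563: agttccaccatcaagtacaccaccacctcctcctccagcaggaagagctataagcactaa
KRT6B, chr12:52840974-52841033: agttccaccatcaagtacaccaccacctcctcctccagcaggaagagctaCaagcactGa
KRT6C, chr12:52862846-52862905: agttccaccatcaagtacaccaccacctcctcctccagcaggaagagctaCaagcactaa
KRT6B differs from KRT6A at 2 of these 60 bases and KRT6C at 1. The transcripts run on for 544 (KRT6A), 539 (KRT6B) and 546 (KRT6C) bases after the stop codon, so the printed stretch lies outside the last 500 bases that were searched below. Over the whole span from the transcript start, ahead of the coding sequence, to the stop codon, KRT6A was 97.3% identical to KRT6B and 97.4% to KRT6C. The last 300 bases of the transcripts part further, at 52.9% identity between KRT6A and KRT6B and 86.1% between KRT6A and KRT6C. None of the 426 windows of 75 bases in the last 500 bases of any of the 3 transcripts occurred in a transcript of another keratin gene, among 209 searched, although a read of KRT6C may still align to KRT6A if mismatches were allowed.

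The type I genes differ more. KRT14, KRT17 and KRT15 are shown over the same 60 bases because their levels are set against each other below, with capitals in KRT17 at the bases that differ from KRT14. KRT15 is printed in lower case throughout, without such a comparison.
KRT14, chr17:39738687-39738746: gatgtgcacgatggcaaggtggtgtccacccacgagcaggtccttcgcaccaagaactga
KRT17, chr17:39775846-39775905: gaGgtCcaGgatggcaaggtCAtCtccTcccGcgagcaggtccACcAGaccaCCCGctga
KRT15, chr17:39670275-39670334: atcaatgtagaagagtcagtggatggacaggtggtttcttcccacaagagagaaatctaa
KRT17 differs from KRT14 at 16 of the 60 bases. From transcript start to stop codon KRT14 was 84.1% identical to KRT16, 76.9% to KRT17 and 69.3% to KRT15. The 3′ ends of KRT14, KRT15, KRT17 and KRT5 held no window shared with another keratin gene, and 16 of the 426 windows of KRT16 (3.8%) also occurred in the pseudogene KRT16P3. KRT17 overlaps a gene on the plus strand, ENSG00000289252, and the strand setting of the counting is not given in the sources used here.

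Library totals ran from 3175149 to 4317286 counts. Basal markers (KRT5, KRT14, TP63, ITGA6, EGFR) were detected in every library and summed to 1558 to 1913 CPM in the controls against 1283 to 1421 CPM in siYAP/TAZ. KRT5, also among the 8 keratins, was the largest part of this sum, at 912 ± 74.2 and 661 ± 47.5 CPM. Of the 5 log2 fold changes, 4 were below 0 and that of TP63 was above. Luminal markers summed to 261.3 to 305.5 and 207.5 to 267.4 CPM, with KRT19 at 1 count or 0. Myoepithelial markers stood at 43.1 to 63.9 and 43.1 to 51.7 CPM, and blood markers at 0.574 to 3.09 and 0.68 to 2.64 CPM. Fibroblast markers stood at 157.6 to 173.4 and 157.5 to 183.8 CPM, with COL1A2 and COL3A1 at 0. Nearly all of the fibroblast sum was PDGFRA, at 161 ± 8.46 CPM in siCtrl and 167 ± 14.5 CPM in siYAP/TAZ. None of the 14 tested markers passed the test. With same-numbered libraries paired, 3 did, in a fit that called 10.1% of all tested genes. These were TP63 as higher, and KRT5 and the luminal marker EPCAM (128 ± 17.8 against 91.1 ± 28 CPM, edgeR adjusted p = 0.0364 with the replicate block) as lower. EPCAM was named after its values were seen. Replicate 2 stood apart from replicates 1 and 3 in some genes of both groups, which is given below with the results it touches.

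Of the 8 keratins, KRT15 alone passed the test, and it was higher after depletion of YAP and TAZ. KRT5 and KRT6A, the 2 most abundant members, were lower in all 3 depleted libraries than in each of the controls, but neither reached an adjusted p of 0.05. Both did when same-numbered libraries were paired. KRT14, KRT6B, KRT16 and KRT17 overlapped between the groups. KRT6C was too low to test. Of the 7 tested members, 1 passed in the higher direction and 0 in the lower. Across all 12510 genes tested, 1.96% passed, 0.743% as higher and 1.22% as lower. The groups did not overlap for 1 member that was higher and 2 that were lower, against 22.1% of all tested genes, 11% higher and 11.1% lower. The median log2 fold change of the tested members was -0.255, beside -0.000931 over all tested genes. A keratin level that differs here may come from a change in the number of cells that express it or in the RNA per cell, and bulk RNA cannot tell these apart.

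**Figure D1:**
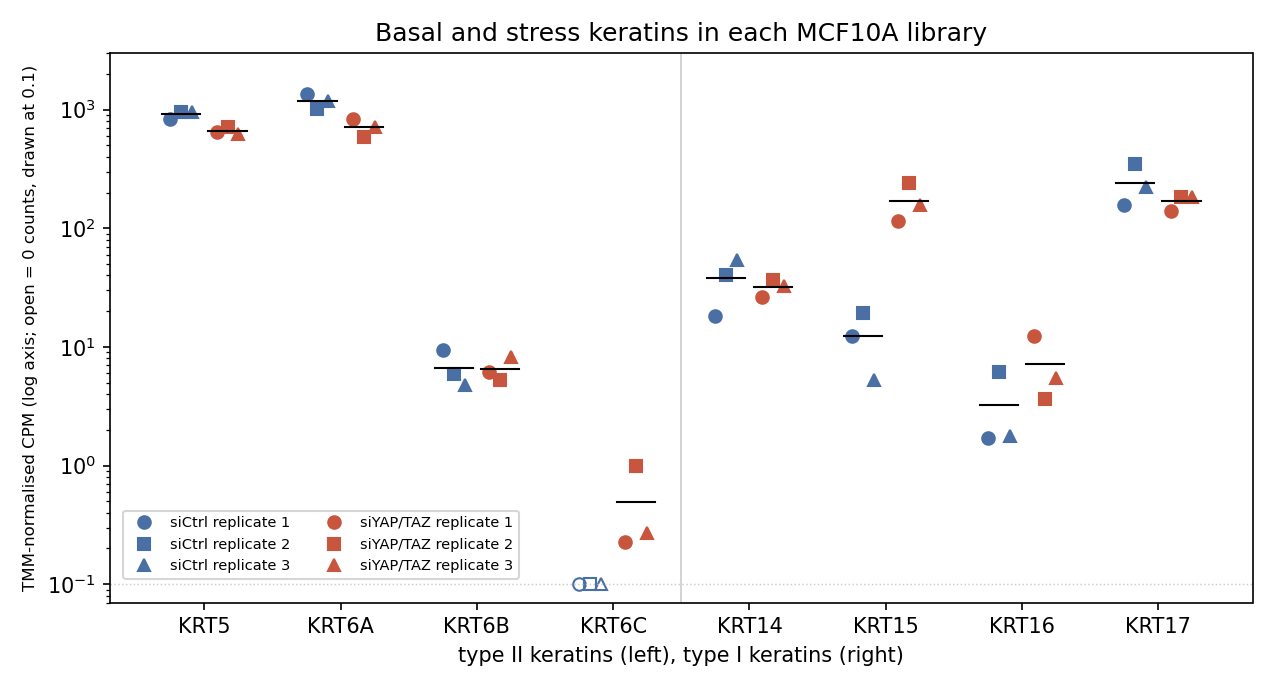
TMM-normalised CPM on a log axis for the 8 keratins, 1 point per library (blue siCtrl, red siYAP/TAZ, the shape giving the replicate) with bars at the group mean and counts of 0 drawn as open points at 0.1. KRT15 is the type I gene whose groups separate, at 5.28 to 19.4 against 115.4 to 242 CPM, whereas the KRT14, KRT16 and KRT17 points overlap.

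KRT5, the type II keratin of the basal network (Entrez 3852, chr12:52908359-52914314), stood at 826, 956 and 954 CPM in the controls against 643, 714 and 624 CPM in siYAP/TAZ. The lowest control library lay above the highest depleted one. The means were 912 ± 74.2 and 661 ± 47.5 CPM (SD, n = 3), so the siYAP/TAZ level was 72.4% of the control level. The log2 fold change was -0.47 (SE 0.141, 95% CI -0.78 to -0.15), and the Benjamini-Hochberg adjusted p from edgeR was 0.13. With the replicate number as a block the value was -0.46 and the adjusted p 0.023, and DESeq2 without a block gave 0.0376. KRT5 thus passed under 2 of 14 alternatives that kept the groups.

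KRT14, the type I partner of KRT5 (Entrez 3861, chr17:39738531-39743147), was far lower in these cells than KRT5. Its levels were 18.4, 40.7 and 54.5 CPM in the controls against 26.3, 36.7 and 32.9 CPM in siYAP/TAZ. The depleted libraries fell inside the control range, which was wide, with replicate 1 lowest in both groups. The means were 37.9 ± 18.2 and 32 ± 5.26 CPM, the log2 fold change -0.26 (SE 0.333, 95% CI -1.002 to 0.49) and the edgeR adjusted p 0.739. Without siCtrl replicate 3 the value turned to 0.11, so these libraries fix no direction for KRT14.

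KRT15 (Entrez 3866, chr17:39669997-39678781) had 43, 63 and 21 counts in the siCtrl libraries and 509, 732 and 573 counts in the siYAP/TAZ libraries. On the CPM scale these were 12.4, 19.4 and 5.28 against 115.4, 242 and 155.8. The highest control library was well below the lowest depleted library, and replicate 2 was highest in both groups. The log2 fold change was 3.81 (SE 0.414, 95% CI 2.88 to 4.74), a 14.02-fold higher level, with an edgeR adjusted p of 0.00462. KRT15 passed in all 14 alternatives that kept the groups, with log2 fold changes of 3.42 to 4.3 and adjusted p of 2.65e-08 to 0.0343. With groups by title, which puts 1 library of each kind into the other group, the value was 0.18 and the adjusted p 0.984.

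KRT6A, a type II keratin induced in activated keratinocytes (Entrez 3853, chr12:52880960-52887041), was the most abundant member in siCtrl. It stood at 1353, 1019.6 and 1184 CPM there and at 832, 593 and 718 CPM in siYAP/TAZ. The groups did not overlap, and replicate 1 was highest and replicate 2 lowest in each. The means were 1186 ± 167 and 714 ± 119 CPM, which put the depleted level at 60.2% of the control level. The log2 fold change was -0.73 (SE 0.177, 95% CI -1.13 to -0.33) with an edgeR adjusted p of 0.0715. KRT6A passed under 5 of the 14 alternatives that kept the groups, among them the replicate block at -0.74 and an adjusted p of 0.00186. Without siCtrl replicate 2 it also passed, at -0.83 and an adjusted p of 0.0102.

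KRT6B, its close copy (Entrez 3854, chr12:52840435-52845930), gave 33, 19 and 19 counts in the controls against 27, 16 and 30 counts in siYAP/TAZ. The groups overlapped at means of 6.71 ± 2.46 and 6.52 ± 1.48 CPM. The log2 fold change was -0.03, and its 95% CI of -0.80 to 0.74 includes the size of the KRT6A difference. KRT6C (Entrez 286887, chr12:52862300-52867589) had 0 counts in each siCtrl library and 1, 3 and 1 counts in siYAP/TAZ. With no count, a true level of up to 3 counts remains possible, or 0.754 to 0.926 CPM in the control libraries, and the depleted libraries held 0.227, 0.992 and 0.272 CPM. A KRT6C difference was not detectable at this depth. With the 3 paralogs summed into 1 row the log2 fold change was -0.73 (SE 0.177) with an edgeR adjusted p of 0.0725, or 0.00194 with the block, so the sum followed KRT6A.

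KRT16, the type I keratin that accompanies KRT6 in stressed epidermis (Entrez 3868, chr17:39766030-39772151), was detected at few counts, 6, 20 and 7 in the controls against 55, 11 and 20 in siYAP/TAZ. As CPM these were 1.72, 6.17 and 1.76 against 12.5, 3.64 and 5.44. The siCtrl replicate 2 value lay above 2 of the 3 depleted libraries. The log2 fold change was 1.22 (SE 0.595, 95% CI -0.11 to 2.56) with an edgeR adjusted p of 0.321. Without siCtrl replicate 2 it was 2.07 and passed at an adjusted p of 0.047. Without siYAP/TAZ replicate 1, which holds 55 of the depleted counts, it was 0.54 with an adjusted p of 0.707. Both the call and the size of the difference thus rest on single libraries.

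KRT17, a type I stress keratin also found in basal cells of glands (Entrez 3872, chr17:39775694-39781094), stood at 155.7, 350 and 223 CPM in the controls against 139, 183 and 184 CPM in siYAP/TAZ. The siCtrl replicate 1 library lay inside the depleted range, and siCtrl replicate 2 was the highest of the 6. The means were 243 ± 98.5 and 169 ± 25.9 CPM, with a log2 fold change of -0.53 (SE 0.262, 95% CI -1.115 to 0.06) and an edgeR adjusted p of 0.334. Without siCtrl replicate 2 the value was -0.17, and with the replicate block the adjusted p was 0.0798. KRT17 passed in none of the 14 alternatives that kept the groups.

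**Figure D2:**
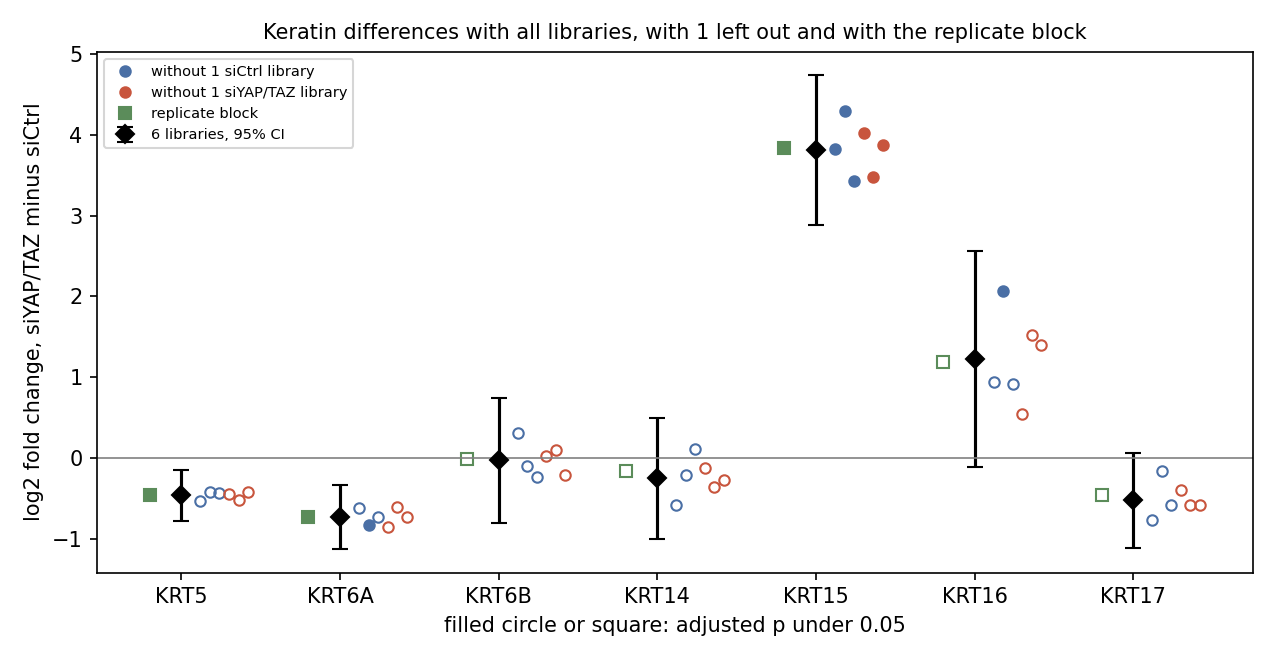
Log2 fold change of the 7 tested keratins, siYAP/TAZ minus siCtrl, with all 6 libraries (black diamond, 95% CI), with the replicate block (square) and with each library left out in turn (circles), where filled squares and circles passed at an adjusted p under 0.05. KRT15 passed throughout these settings at 3.42 to 4.3, KRT5 with the block alone, KRT6A with the block and without siCtrl replicate 2, and KRT16 without siCtrl replicate 2.

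Pairing same-numbered libraries brought 2 members past the threshold as lower, KRT5 and KRT6A, and 1 as higher, KRT15, in a fit that called 10.1% of all tested genes, 5.44% lower and 4.66% higher. Leaving out siCtrl replicate 2 gave 1 lower (KRT6A) and 2 higher (KRT15 and KRT16), where 12.3% of the genes passed, 6.22% lower and 6.08% higher. Both settings call more genes in each direction, so the added keratin calls have to be read against these shares.

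The order of the 8 levels differed between the groups mainly in the place of KRT15. In siCtrl the order by mean CPM was KRT6A, KRT5, KRT17, KRT14, KRT15, KRT6B, KRT16 and KRT6C, and the ranges of neighbours overlapped from KRT14 through KRT16. In siYAP/TAZ it was KRT6A, KRT5, KRT15, KRT17, KRT14, KRT16, KRT6B and KRT6C. There KRT6A overlapped KRT5, KRT15 overlapped KRT17, and KRT16 overlapped KRT6B. KRT15 was thus below or among the KRT14 values in the controls (5.28 to 19.4 against 18.4 to 54.5 CPM) and above all of them after depletion (115.4 to 242 against 26.3 to 36.7 CPM).

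The 8 genes together took a smaller share of the library after depletion. They held 0.244%, 0.23% and 0.248% of all counts in the controls against 0.181%, 0.17% and 0.171% in siYAP/TAZ, and the groups did not overlap. The means were 0.241% ± 0.0097 and 0.174% ± 0.00632 (SD, n = 3), with a two-sided exact permutation p of 0.1, the smallest that 3 libraries against 3 can give. KRT5 and KRT6A make up most of this pool, so the sum follows them.

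Within the pool, KRT15 took 0.52%, 0.811% and 0.217% of the keratin counts in the controls against 6.5%, 13.6% and 9.02% in siYAP/TAZ. KRT6A took 49.4% ± 7.22 against 40.6% ± 6.82, KRT5 38% ± 2.8 against 37.5% ± 2.28, and KRT17 10.1% ± 4.1 against 9.58% ± 1.54, each with overlapping libraries. The type II share was 92.1%, 82.6% and 88.3% in the controls against 83.5%, 73.8% and 78.1% in siYAP/TAZ, with siCtrl replicate 2 inside the range of the depleted libraries (exact permutation p = 0.2). The stress keratins (KRT6A, KRT6B, KRT6C, KRT16 and KRT17) made up 63.9%, 57.6% and 58.2% of the pool against 55.7%, 44.2% and 53% (exact permutation p = 0.1), with no overlap between the groups. As shares of 1 pool, these values are not independent: a larger KRT15 share lowers the others, the stress share included. The stress share of a pool without KRT15 was not tested, and the KRT6A to KRT5 ratio, given below, overlapped between the groups.

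**Figure D3:**
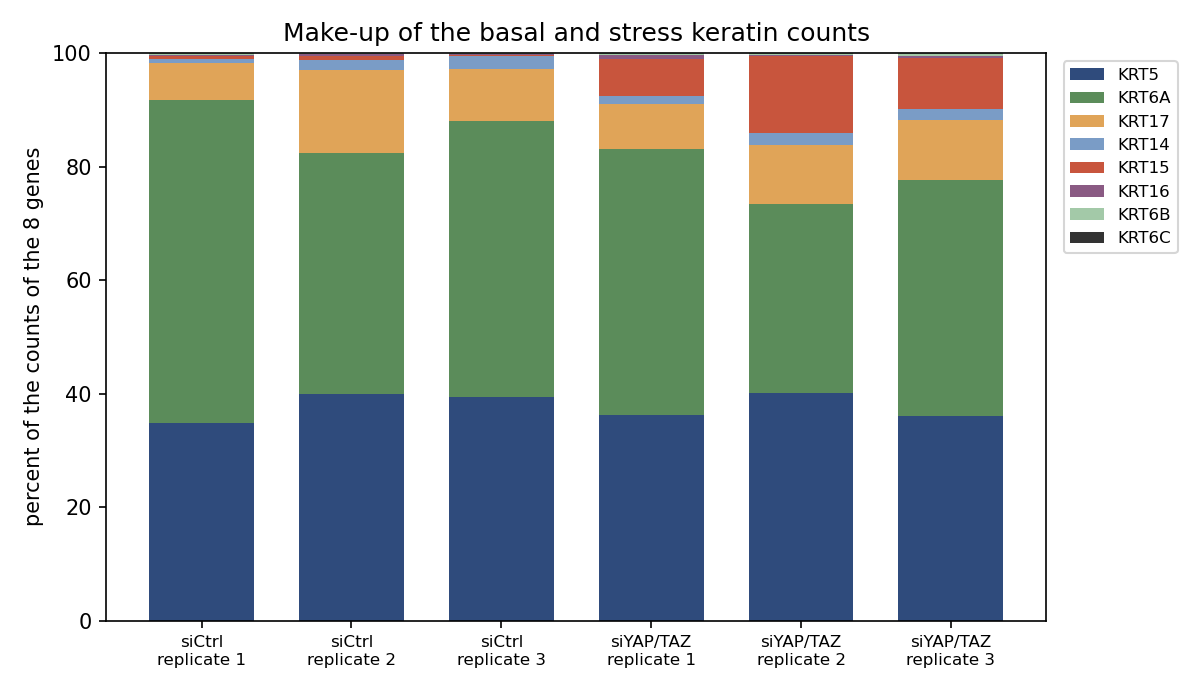
Percent of the counts of the 8 keratins that each gene held, 1 stacked bar per library. KRT15 (red) fills 0.217% to 0.811% of the siCtrl bars and 6.5% to 13.6% of the siYAP/TAZ bars, while KRT5 (dark blue) stays between 34.8% and 40.1% in all 6.

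Ratios between 2 keratins of 1 library do not depend on how libraries are scaled, and 6 were compared as log2 ratios of counts plus 0.5. KRT15 to KRT14, both type I, was -0.57, -1.06 and -3.34 in the controls against 2.13, 2.72 and 2.24 in siYAP/TAZ. All control libraries held fewer KRT15 than KRT14 counts and all depleted libraries more, a 16.2-fold shift of the mean ratio. The difference of the log2 ratios was 4.02, and 3.18 without siCtrl replicate 3. KRT15 to KRT5 was -6.05, -5.61 and -7.46 against -2.48, -1.56 and -2.001, a 20.5-fold shift without overlap. Each gave an exact permutation p of 0.1, the smallest possible, and 0.2 after Benjamini-Hochberg adjustment over the 6 ratios.

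KRT6A to KRT16, a stress pair, was 9.50, 7.33 and 9.29 in the controls against 6.05, 7.29 and 7.01 in siYAP/TAZ. The groups adjoin at replicate 2 without overlap (difference -1.93, exact permutation p = 0.1, adjusted 0.2, and -2.62 without siCtrl replicate 2), and in siCtrl the ratio rests on 6 to 20 KRT16 counts. The basal pair KRT5 to KRT14 overlapped, at 5.48, 4.55 and 4.13 against 4.61, 4.28 and 4.24 (difference -0.34, exact permutation p = 0.7). KRT17 to KRT14 and KRT6A to KRT5 also overlapped, with differences of -0.34 (exact permutation p = 0.4) and -0.27 (exact permutation p = 0.5). With 3 libraries a group, none of the 6 ratios could pass a threshold of 0.05.

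**Figure D4:**
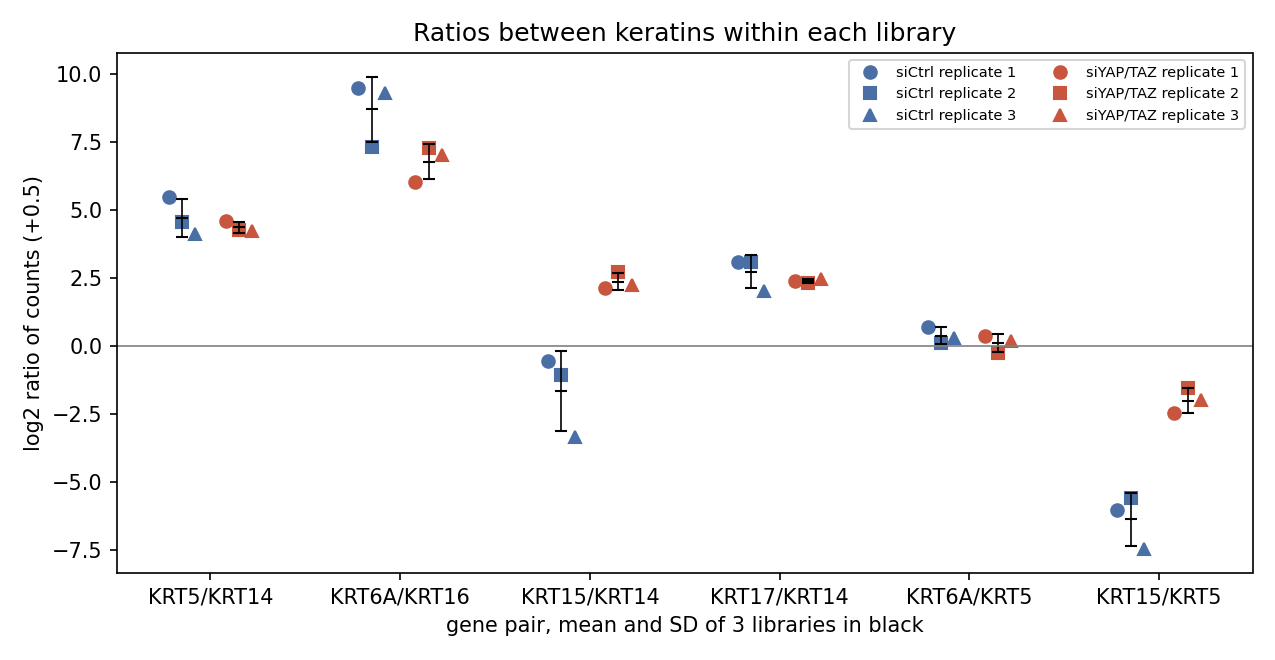
Log2 ratios of counts plus 0.5 for 6 keratin pairs, 1 point per library (blue siCtrl, red siYAP/TAZ), with the mean and SD of 3 libraries in black. KRT15/KRT14 and KRT15/KRT5 separate the groups by 4.02 and 4.36, and KRT6A/KRT16 by -1.93 with the replicate 2 points nearly level.

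Over the 6 libraries the log2 CPM of KRT15 and KRT6A ran opposite ways (Pearson r = -0.934), as did KRT15 and KRT5 (r = -0.869), and KRT5 and KRT6A ran together (r = 0.7). These values describe 6 libraries in 2 groups, so a group difference in both genes gives a correlation by itself. Among 7709 tested genes outside the list with a mean of at least 20 CPM, those whose pattern was most like KRT15 were TSPAN14 (r = 0.993), SLC43A2 (r = 0.993), ARHGAP8 (r = 0.991) and PRR5-ARHGAP8 (r = 0.99), the last 2 being a gene and a readthrough transcript that overlap. A high r does not mean a difference of like size. The levels were 1.51-fold (TSPAN14), 3.107-fold (SLC43A2), 1.575-fold (ARHGAP8) and 1.581-fold (PRR5-ARHGAP8) higher after depletion, against 14.02-fold for KRT15, and of these matches SLC43A2 alone passed. SLC43A2 stood at 16.7, 18.2 and 9.05 CPM in the controls against 37.9, 51.6 and 46.5 CPM in siYAP/TAZ, with siCtrl replicate 3 lowest as for KRT15. The genes most like KRT6A were SGO2 (r = 0.997), CDC20 (r = 0.997), TRNP1 (r = 0.996) and CKAP2L (r = 0.995). SGO2, CDC20 and CKAP2L act in mitosis. SGO2 stood at 132.4, 90.4 and 116.6 CPM in the controls against 71.8, 42 and 54.4 CPM in siYAP/TAZ, replicate 1 being highest and replicate 2 lowest in each group as for KRT6A. All these genes were picked by their r over the same 6 libraries, so a like order of the replicates comes with the choice. A link to either keratin was not tested.

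Of the 27 other keratin genes, 15 had a count, 6 were tested, 0 passed as higher and 1 as lower. The median of those tested was -0.59 on the log2 scale, with KRT81 and KRT86, which share nearly all counts (below), entered as 2 genes. The gene that passed was KRT7, a type II keratin of simple and glandular epithelium. It stood at 302, 265 and 292 CPM in the controls against 159, 134 and 147 CPM in siYAP/TAZ, and fell by 0.97 on the log2 scale (SE 0.13, edgeR adjusted p = 0.0107). The call was lost without replicate 3 of siCtrl and without replicate 2 or 3 of siYAP/TAZ, at adjusted p of 0.0505 to 0.0851 and log2 fold changes of -0.96 to -0.90. KRT81 and KRT86, type II hair keratins, were the most abundant of these genes, at 2707, 1449 and 2149 CPM in the controls against 1154, 335 and 537 CPM in siYAP/TAZ for KRT81 (log2 fold change -1.64, edgeR adjusted p = 0.0792, and 0.000217 with the replicate block). KRT86 held nearly the same counts as KRT81 in each library (9466 and 9427 in siCtrl replicate 1), and the 2 genes overlap on opposite strands, so without a stated strand setting they are uncertain as separate genes. KRT10, a type I keratin of the upper epidermis, stood at 48.5 to 54.3 CPM in the controls against 56.9 to 68.4 CPM in siYAP/TAZ and did not pass (edgeR adjusted p = 0.335). KRT8 and KRT18, the simple epithelial pair, were also not called, with KRT18 at 84.7 ± 11.2 against 73 ± 10.9 CPM and KRT8 at 22.6 ± 3.83 against 24.5 ± 4.48 CPM.

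Hemidesmosomes tie the KRT5 and KRT14 network to the basement membrane. All 11 genes of a list for hemidesmosome and basement membrane anchorage were tested. In it 0 passed in either direction, 7 values were below 0 and the median was -0.34. The hemidesmosome genes lay on both sides of 0. ITGB4, COL17A1 and DST had log2 fold changes of 0.35, 0.31 and 0.03, and ITGA6, PLEC and CD151 had -0.38, -0.34 and -0.20. LAMB3, a laminin chain of the epithelial basement membrane, stood at 329 ± 22.4 against 217 ± 42.7 CPM. ITGB1, the integrin beta 1 chain, stood at 350 ± 40.3 against 218 ± 32.2 CPM (edgeR adjusted p = 0.056), and ITGA3, its alpha 3 partner, at 60.4 ± 5.9 against 44.2 ± 5.69 CPM. With the replicate block ITGB1 and LAMB3 passed as lower, in a fit that called 5.44% of all tested genes lower.

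Desmosomes join keratin filaments of neighbouring cells. Of 11 genes, 10 were tested, 0 passed in either direction, 9 values were above 0 and the median was 0.28. The largest differences were in the plakin PPL (47.6 ± 28 against 91.3 ± 28.2 CPM), PKP2, a plakophilin (68 ± 11.6 against 107.6 ± 23.8 CPM), DSC2, a desmosomal cadherin (40.4 ± 4.72 against 62.3 ± 2.33 CPM), and DSP, the plakin that binds keratin filaments (655 ± 206 against 951 ± 125 CPM). These 4 passed as higher with the replicate block, and with DSC3 without siCtrl replicate 2, the control library in which PPL and DSP were highest. Of all tested genes, 4.66% passed as higher with the block and 6.08% without siCtrl replicate 2.

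Of 16 regulators that are tied to keratin genes, 15 were tested, 1 passed as higher and 0 as lower, with 12 values above 0 and a median of 0.45. EHF, an epithelial ETS factor, had 138, 111 and 60 counts in the controls against 492, 341 and 244 counts in siYAP/TAZ, without overlap. Its level rose by 1.72 on the log2 scale (SE 0.331, edgeR adjusted p = 0.0349), and it passed under 9 of the 14 alternatives that kept the groups. It was lost without any 1 library other than siCtrl replicate 2, at adjusted p of 0.0509 to 0.111. ELF3, a related ETS factor (9.79 ± 9.24 against 24.4 ± 10.8 CPM), KLF4, a factor of differentiating epidermis (3.16 ± 1.69 against 8.92 ± 4.79 CPM), and TFAP2C, an AP-2 factor (32.4 ± 7.83 against 16.7 ± 4.3 CPM), did not pass. With the replicate block 3 regulators passed as higher, EHF, ELF3 (edgeR adjusted p = 0.025) and TP63, and 1 as lower, TFAP2C (edgeR adjusted p = 0.0118). Over all tested genes that fit called 4.66% higher and 5.44% lower. TP63, the p53 family factor that maintains basal cells and is known to drive KRT5 and KRT14, was named after its values were seen. It stood at 40.8, 43.5 and 62.8 CPM in the controls against 61.4, 85.3 and 74.5 CPM in siYAP/TAZ, where siCtrl replicate 3 overlapped the depleted libraries (log2 fold change 0.58, edgeR adjusted p = 0.177, or 0.0379 with the replicate block).

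Of 14 genes that accompany the stress keratins in activated keratinocytes, 7 were tested, 0 passed in either direction and the median was -0.21. Replicate 2 stood apart in this list: its genes summed to 813, 3319 and 732 CPM in the controls against 1894, 8855 and 1641 CPM in siYAP/TAZ. The calprotectin gene S100A8 makes up most of that sum, at 574, 2473 and 492 CPM against 1517, 6828 and 1291 CPM. Its partner S100A9, the related S100A7 and the serpin SERPINB3 were also highest in replicate 2 of both groups, and for S100A9 and S100A8 siCtrl replicate 2 exceeded 2 depleted libraries. With the replicate block S100A7, S100A8 and S100A9 passed as higher and PI3, SERPINB3 and SERPINB4 as lower, beside 4.66% and 5.44% of all tested genes. KRT17 and KRT15 were highest in siCtrl replicate 2 within their group and KRT6A lowest. The part of this replicate's state in their differences was not tested, and each is given above or in the plot of left-out libraries with and without it.

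**Figure D5:**
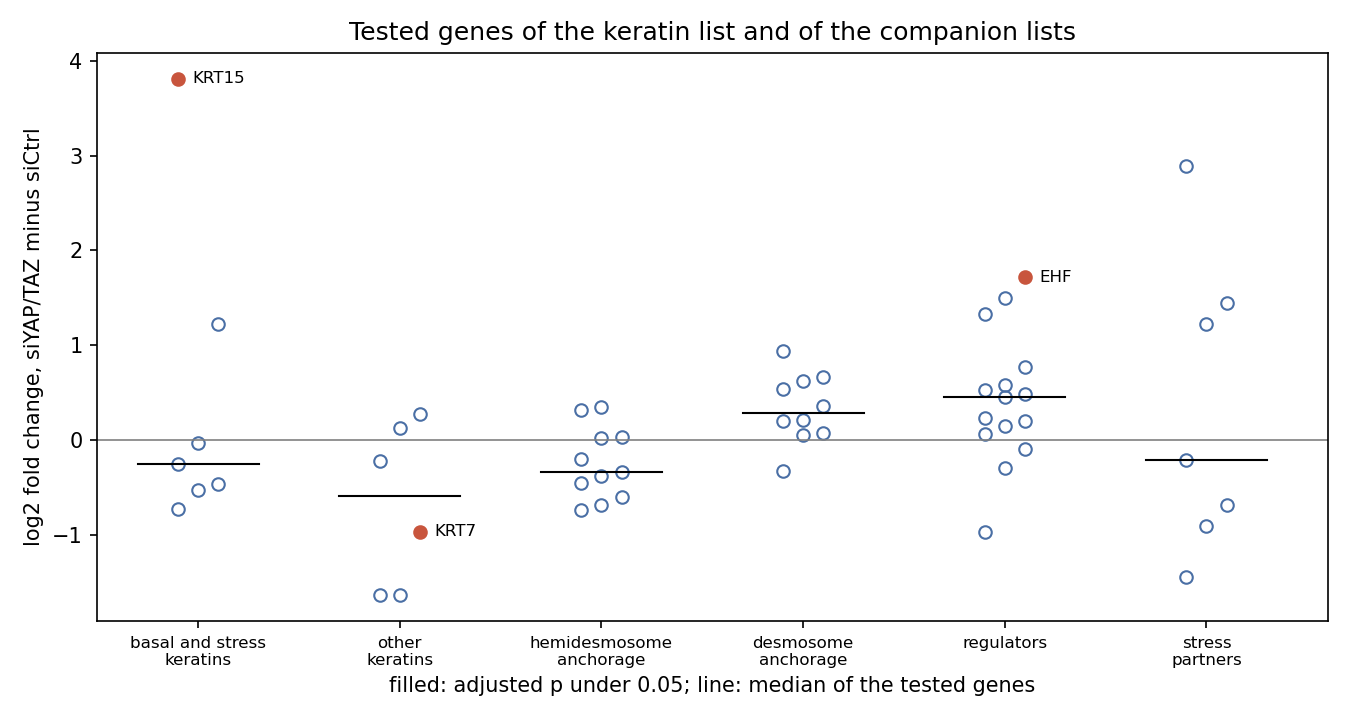
Log2 fold change, siYAP/TAZ minus siCtrl, of each tested gene of the keratin list and of 5 companion lists, with a bar at the list median and filled points where the adjusted p was under 0.05. The called genes are KRT15 at 3.81, KRT7 at -0.97 and EHF at 1.72. The list medians run from -0.59 (other keratins, with KRT81 and KRT86 as 2 genes) to 0.45.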

How the data were processed

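The 6 libraries of MCF10A cells (3 siCtrl, 3 siYAP/TAZ) were sequenced from mRNA 3′ ends. The authors deposited 1 table of raw counts per Entrez gene, with whole numbers and no normalization. Per the submitters' processing notes, reads were trimmed with cutadapt 4.2 and aligned with Bowtie2 2.3.5.1 to hg19. Bowtie2 does not split reads over introns, and the annotation, the handling of reads with several matches and the strand setting are not given in the sources used here. Of 23459 gene identifiers, 23308 matched a symbol, holding 99.7% of the counts.

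Counts were tested with edgeR 4.0.16 (R 4.3.3; filterByExpr, TMM, glmQLFit and glmQLFTest, group as the only term) over the 12510 genes that passed the filter, with Benjamini-Hochberg adjustment and a threshold of 0.05. KRT6C did not pass this filter. Ratios and pool shares were compared by two-sided exact permutation tests. Totals were 3175149 to 4317286 counts. On the TMM-scaled library sizes 3 counts, the limit that a count of 0 allows, stood at 0.68 to 0.992 CPM, and such limits cover counting error only. Same-group libraries differed beyond counting noise (chi-square per degree of freedom 5.37 to 17.4), so none was treated as a repeat. The labels do not say whether libraries came from separate cultures, so p-values measure the spread between these samples, which may be technical.

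The descriptions number the libraries 1 to 3 in both groups, and the titles number some of them otherwise. Deviations from the group means correlated at 0.416, 0.345 and 0.129 for same-numbered libraries, all above 0.1. The numbers were taken to pair them, and the blocked fit was run as an alternative. Different-numbered libraries were not correlated, so these values do not show that this pairing fits better than another. Other alternatives were no filter, a mean of at least 50 counts, RLE scaling, library size alone, robust dispersion and DESeq2 1.42.0. Further ones were each library left out, groups by title, and both libraries with disagreeing group labels left out. The edgeR fit was tried on simulated counts with the same dispersion for every gene and no replicate effect. That checks the code and not how the fit behaves on these libraries.

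The members and lists were chosen with earlier results of these data known. All 8 members, the targeted genes, the 4 tested genes of each companion list with the largest absolute log2 fold change and every called list gene (up to 6) were named, with the 4 genes most like KRT15 and KRT6A. The result of 1 gene that this rule names is not reported here. Genes outside this rule are named as members of a list or where a count turned on them. Of 11 keratin pseudogenes and near copies, 5 stood in the table, 2 had a count and 0 were tested. Sequences and positions are from GENCODE v44 lifted to GRCh37.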

Additional observations from a re-analysis of the deposited data

How the results depend on the processing

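Beside the 245 genes called over all libraries, 556 were called with no filter, 587 by DESeq2, 1263 with the replicate block, 1183 with both libraries of disagreeing labels left out, 0 with groups by title, and 16 to 1579 with 1 library left out. The low counts were those without replicate 3 (16) or 1 (92) of siCtrl and without replicate 3 (18) or 2 (71) of siYAP/TAZ. The high one was that without replicate 2 of siCtrl, and the cause was not tested. KRT15 kept its call except with groups by title (0.18). KRT5 passed by DESeq2 (-0.47) and with the block (-0.46). KRT6A passed with no filter (-0.73), by DESeq2 (-0.74), with the block (-0.74) and with both disagreeing libraries left out (-0.71), and its values ran from -0.85 to -0.61 with 1 library left out. The summed KRT6A, KRT6B and KRT6C row did the same at -0.73, -0.73, -0.73 and -0.70, with -0.85 to -0.61. KRT16 passed with both disagreeing libraries left out (2.36) and ran from 0.54 to 2.07 with 1 library left out. Directions turned for KRT14 with 1 library left out (-0.59 to 0.11), for KRT6B with 1 library left out (-0.23 to 0.30), by title (0.045) and with both disagreeing libraries left out (0.013), for KRT17 by title (0.25), for KRT17/KRT14 by title (0.18), and for KRT5/KRT14 with 1 library left out (-0.64 to 0.038). By title, S100A7 turned to -1.82, S100A8 to -0.58, S100A9 to -0.72, SERPINB3 to 0.36 and TP63 to -0.070, and S100A9 ran from -0.17 to 2.21 with 1 library left out. The block changed no other call of the 8 keratins. Leaving out 1 library leaves 2 in its group. Depth, at 3175149 to 4317286 counts a library, limits KRT6C, KRT16 and KRT6B most.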

Other observations

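The values that follow were chosen after they were seen and carry no explanation. SPRR1B, a cornified envelope precursor of the stress partner list, had too few counts for the filter, at 2, 1 and 1 in the controls against 41, 6 and 17 after depletion, without overlap. With no filter its log2 fold change was 3.75 (edgeR adjusted p = 0.00577), by DESeq2 3.83 (adjusted p = 0.0044), and over the 7 alternatives that tested it adjusted p ran from 0.0044 to 0.195, with 5 passing. KRT80, a type II keratin of many epithelia, was also below the filter, with 12, 3 and 6 counts in the controls against 2, 0 and 1 after depletion, and did not pass with no filter (log2 fold change -2.73, edgeR adjusted p = 0.123). LCN2, a siderophore-binding protein raised in inflamed epithelia, had 4, 2 and 1 counts against 9, 14 and 4, with siYAP/TAZ replicate 3 level with siCtrl replicate 1.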
